A study of Mus musculus with 3 samples.

Results

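The epidermal differentiation complex is a block of mouse chromosome 3 in which the genes of the outer skin barrier lie side by side. Its members were all protein-coding genes that lie wholly between 90.5 and 93.7 Mb of chromosome 3 (GRCm38, GENCODE annotation), which gave 78 genes, against 21851 protein-coding genes with a start site in the whole genome. By name they fell into 14 S100 genes, 15 Sprr genes (small proline-rich proteins), 21 Lce genes (late cornified envelope proteins), 6 filaggrin-type genes, 10 other genes of the cornified layer and 12 neighbours. A protein-coding start site was annotated for 77 of the 78, Gm42674 being the exception. Membership rested on position and name, and no measured value entered it.

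Open chromatin was mapped by Omni-ATAC-seq, in which Tn5 transposase cuts accessible DNA, in hair follicle stem cells (HFSCs) sorted as CD34+ CD49f+ Sca-1- cells from dorsal skin of 6-month-old mice in telogen, when the hair cycle rests. The control was 1 Msx2-WT library (WT) from hair-cycle-matched C57BL/6J mice. The 2 Msx2-KO libraries (replicates 1 and 2, here KO1 and KO2) came from mice homozygous for a germline pMC1-neo insertion upstream of exon 2 of Msx2, a homeobox gene, so the allele was present in every cell of the animal and not in the HFSCs alone. The labels do not say whether the 2 KO libraries came from separate mice. The WT library belonged to one labelled batch date and both KO libraries to another, so that date and genotype cannot be told apart, and genotypes were not compared by a test. The labels and the peak names disagreed in part: the KO peaks are named "cKO", and those of KO1 bear a library number that differs from its label. The labels were followed.

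As background, keratinocytes leave the basal layer, stop dividing and build the cornified envelope, a sheath of cross-linked proteins under the cell membrane. Involucrin, loricrin, the Sprr and the Lce proteins are its building blocks, transglutaminases cross-link them, and filaggrin bundles keratin filaments beneath it. S100 proteins are small calcium-binding proteins, many of which are made in cells other than cornifying ones. HFSCs are undifferentiated cells of the follicle bulge and are not known for building a cornified envelope.

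A peak was counted at a −log10 q above 2, and a promoter peak was one whose summit lay within 1500 bases of a start site. The number of cut-site tags under each summit was recovered from the deposited fold and p-value. The background, the genome-wide number of tags expected at any position, was 1.74 tags in WT, 0.476 in KO1 and 0.790 in KO2. The weakest peaks that passed held 9, 5 and 6 tags. The lowest level of any such peak was 5.18, 10.5 and 7.59 times background, so by this measure the floor was highest in KO1. The promoter of Msx2, outside the complex, had a peak of 15, 9 and 16 tags in WT, KO1 and KO2, and it does not check the insertion. Of 8 HFSC marker genes, 5, 5 and 7 had a promoter peak, against 3, 1 and 2 of 5 suprabasal epidermis markers, 3, 2 and 3 of 4 melanocyte markers, 2, 0 and 3 of 5 fibroblast and endothelium markers and 0 of 6 leukocyte markers in each library.

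The upstream sequences of 7 members are shown first, because they cover both the members with a promoter peak and the structural genes without one. Each is the 120 bases before the annotated start, 5′ to 3′ on the gene's strand, read from GRCm38, and ends at the base before the first transcribed one. Capitals mark 3 motifs searched on both strands. They are TGANTCA, bound by AP-1 factors, TATAAA, one form of the TATA box, and CCACCC, a Klf-type box (GGGTGG on the other strand). The positions are chr3:90526736-90526855 (plus strand) for S100a14, chr3:93520368-93520487 (plus) for S100a11, chr3:92485896-92486015 (minus) for Sprr1a, chr3:92573736-92573855 (minus) for Ivl, chr3:93144667-93144786 (plus) for Crnn, chr3:92083143-92083262 (minus) for Lor and chr3:92957270-92957389 (plus) for Lce3d.
S100a14: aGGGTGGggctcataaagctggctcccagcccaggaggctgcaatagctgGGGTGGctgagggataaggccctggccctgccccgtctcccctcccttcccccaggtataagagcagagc
S100a11: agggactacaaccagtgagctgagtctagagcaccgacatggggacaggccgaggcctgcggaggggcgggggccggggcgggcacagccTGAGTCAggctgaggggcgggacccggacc
Sprr1a: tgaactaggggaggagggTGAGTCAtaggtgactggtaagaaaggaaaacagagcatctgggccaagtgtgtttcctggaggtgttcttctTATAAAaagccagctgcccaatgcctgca
Ivl: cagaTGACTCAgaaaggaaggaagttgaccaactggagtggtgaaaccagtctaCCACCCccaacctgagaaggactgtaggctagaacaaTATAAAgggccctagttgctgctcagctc
Crnn: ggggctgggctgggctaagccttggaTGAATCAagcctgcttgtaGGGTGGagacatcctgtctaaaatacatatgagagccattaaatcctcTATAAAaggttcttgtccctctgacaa
Lor: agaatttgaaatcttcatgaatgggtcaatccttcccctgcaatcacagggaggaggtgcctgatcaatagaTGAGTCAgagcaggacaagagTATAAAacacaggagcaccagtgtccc
Lce3d: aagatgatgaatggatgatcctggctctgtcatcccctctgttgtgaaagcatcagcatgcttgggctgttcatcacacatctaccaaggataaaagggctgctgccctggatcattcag

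The sequences show that a TATA box and an AP-1 motif stood before Lor, Sprr1a, Ivl and Crnn. Lor had no promoter peak within 1500 bases in any library, and the other genes had one in at least 1. For Lor this hangs on the window, since in KO2 a summit inside the gene lay 1509 bases from its start. S100a11 had an AP-1 motif and no TATAAA, S100a14 had 2 Klf-type boxes, and Lce3d had none of the 3 motifs in this window.

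Promoters of the complex were open less often than those of all genes. In WT 10 of 77 members had a promoter peak (13.0%, 95% Wilson interval 7.21 to 22.3), against 47.1% of all protein-coding genes. In KO1 there were 7 (9.09%, 4.47 to 17.6), against 37.9%. In KO2 there were 14 (18.2%, 11.2 to 28.2), against 53.7%. The share of the members lay below that of all genes in each of the 3 libraries, and 62 of the 77 had no promoter peak in any. These intervals cover counting error only and treat neighbouring genes as independent, which they are not.

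The families differed widely. Of 14 S100 genes, 7, 7 and 10 had a promoter peak in WT, KO1 and KO2, which is 50%, 50% and 71.4%. Of 15 Sprr genes, 1, 0 and 1 had one, and the 1 was Sprr1a each time. None of the 21 Lce genes and none of the 6 filaggrin-type genes had a promoter peak in any library, and for the Lce genes a count of 0 leaves a Wilson upper limit of 15.5%. The 10 other cornified genes gave 1, 0 and 2, and the 11 neighbours with a start site gave 1, 0 and 1. For comparison, 9, 3 and 9 of 53 keratin genes and 3, 1 and 1 of 57 keratin-associated protein genes elsewhere in the genome had a promoter peak. The S100 genes thus held most of the open promoters of the complex and were the sole family whose share was above that of all genes in each library. Their intervals, 26.8 to 73.2 in the first pair of libraries and 45.4 to 88.3 in the last, included the share of all genes. In a sorted population a site open in fewer cells and a site less open in every cell cannot be told apart.

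**Figure D1:**
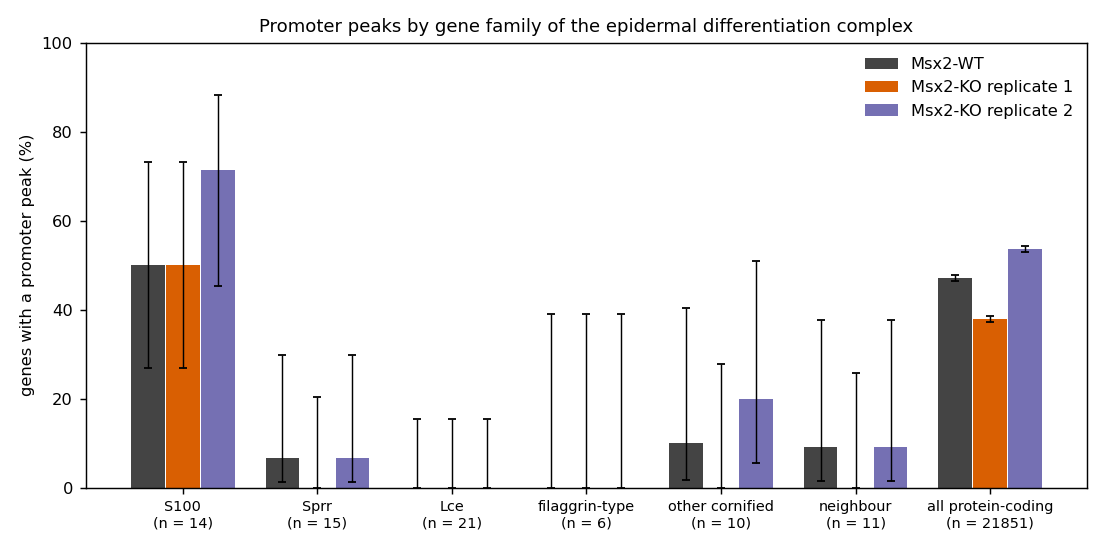
Share of genes with a promoter peak (y axis, percent) by gene family (x axis, with the number of genes that have a start site) in WT, KO1 and KO2; bars are shares and whiskers 95% Wilson intervals. The S100 bars stand at 50 to 71.4%, near those of all protein-coding genes, whereas the Lce and filaggrin-type bars are at 0 in each library.

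The order of the genes along the chromosome followed the same pattern. The first S100 cluster, 0.185 Mb long, held 65.0, 37.9 and 65.0 peaks per Mb in WT, KO1 and KO2, and the 0.0442 Mb around S100a11 and S100a10 held 90.6, 45.3 and 67.9. Across the genome the density was 10.9, 6.79 and 13.6 peaks per Mb. The Sprr cluster held 14.1, 7.03 and 21.1 peaks per Mb, from 4, 2 and 6 peaks. All of its KO1 peaks lie before Sprr2a2 and Sprr2a3, in copies of one sequence described below. Most of its KO2 peaks also consist of repeated sequence. Counting copies once would lower these values, so their place beside the genome's density is not settled. The filaggrin-type genes held 18.2, 7.28 and 18.2, from 5, 2 and 5 peaks, not below the genome's density. The Lce cluster held 5.01, 5.01 and 12.5, below the genome's density in each library. These values rest on 2, 2 and 5 peaks in 0.399 Mb, and those of KO1 and KO2 were near the genome's. The widest piece with no peak in any library was 901 kb long and reached from beyond 9130204L05Rik to beyond Pglyrp3, which was the 1 member inside it. Pieces of 192 kb with 13 members (Lce6a to Lce1j) and 233 kb with 9 members (Lce3a to Gm4858) had no peak in any library. No base of the stretch was unknown in the reference, and 19 of the 21 Lce genes had under 5% of repeated 50-base words within 500 bases of their start. Only exact words within the stretch were counted, so inexact copies and copies elsewhere in the genome were not seen. How well reads map in the pieces without peaks was not tested.

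**Figure D2:**
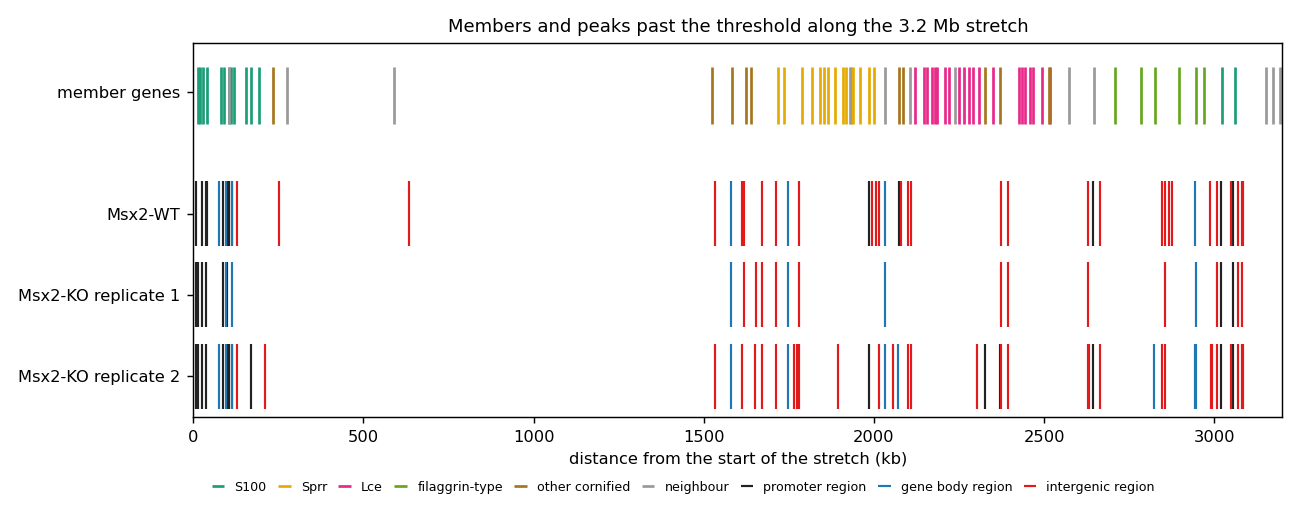
Member genes coloured by family (top row) and regions with a peak in each of the 3 libraries (lower rows, coloured by place), against distance from the start of the 3.2 Mb stretch in kb. Peaks crowd at both ends, where the S100 genes lie, a 901 kb gap lies between the first S100 cluster and Lor, and the Lce genes stand over stretches without peaks.

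Of the S100 genes, 5 had a promoter peak in all 3 libraries, which is 6.49% of the members against 35.2% of all genes. S100a14, a gene of epithelial cells, had 37 tags in WT, 14 in KO1 and 36 in KO2. S100a16, next to it, had 42, 11 and 27, with the KO1 and KO2 summits past the end of the WT peak. S100a3, a gene of hair cuticle cells, had 46, 22 and 53. All 3 lie in the first cluster, and the weakest of these peaks was that of S100a16 in KO1, which did not reach a −log10 q of 5.

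S100a11, a widely made S100 protein, had 24, 17 and 29 tags in the same order of libraries. S100a10, the partner of annexin A2, had 32, 35 and 46, and is the sole one of these 5 with more tags in KO1 than in WT. Over background its levels were 18.4 (95% Poisson interval 12.6 to 26.0) in WT, 73.5 (51.2 to 102) in KO1 and 58.2 (42.6 to 77.6) in KO2. The strongest summit lay at 1032 and 1002 bases past the start in WT and KO2 but at 103 in KO1, outside the WT peak, so the KO1 value is of another site. The WT interval of S100a10 does not overlap that of KO2, but the scale moved genome-wide in the same direction. At all shared regions of the genome the median was 13.2 times background in WT, 23.1 in KO1 and 30.4 in KO2.

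S100a1, a calcium sensor of muscle and nerve, and S100a13 start back to back and share 1 peak, so they count as 2 members but 1 measurement. It held 7 tags in KO1 and 21 in KO2, and 9 tags in WT, where it was listed at a −log10 q of 1.5, below the threshold. This pair made up the 2 members with a promoter peak in both KO libraries alone, 2.60% of the members against 2.32% of all genes. The level over background was 5.18 (2.37 to 9.83) in WT, 14.7 (5.91 to 30.3) in KO1 and 26.6 (16.5 to 40.6) in KO2, so the WT interval overlaps that of KO1. With a −log10 q of at least 5 no member was open in both KO libraries alone.

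S100a4, a gene of motile and mesenchymal cells, had 41 tags in WT and 21 in KO2, at 806 and 809 bases past its start, and no peak was listed in KO1. S100a6, a gene of proliferating cells, had 15 tags in WT, 6 in KO1 (below the threshold) and 18 in KO2. With Sprr1a and Crnn they formed the 4 members open in WT and KO2 alone, 5.19% of the members against 9.64% of all genes. S100a8, which makes calprotectin with S100a9, had 9 tags in KO2 and nothing listed in the other libraries. S100a9 had nothing listed in any library, and neither did S100a2, S100a5 or S100a7a.

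Among the envelope genes few promoters were open, and at low tag numbers. Sprr1a, a cross-bridging envelope protein, had 12 tags in WT, 4 in KO1 (below the threshold) and 9 in KO2, with summits at −116, −279 and −145 from the start. The summit in WT lies inside the sequence printed above and the others lie before it. Over background these were 6.90 (3.57 to 12.1), 8.40 (2.29 to 21.5) and 11.4 (5.21 to 21.6), and the intervals overlap throughout.

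Ivl encodes involucrin, an early scaffold of the envelope. Its promoter had 15 tags in WT at a −log10 q of 6.97, 5 tags in KO2 (below the threshold) and nothing listed in KO1. Ivl was the 1 member open in WT alone (1.30% of the members against 2.11% of all genes). Over background it reached 8.63 (4.83 to 14.2) in WT and 6.33 (2.05 to 14.8) in KO2. The intervals overlap. The WT level of Ivl was below the 10.5 times background of the weakest peaks that passed in KO1. Levels at shared regions of the genome also ran higher in KO1 (median 23.1, against 13.2 in WT), so the levels are not on one scale. With a −log10 q of at least 5, with lists of equal length and with tags thinned to the background of KO1, Ivl stayed in WT and in neither KO library. With a window of 3000 bases a peak of 6 tags inside Ivl in KO2 also counted, and no member was open in WT alone. The suprabasal markers Krt10, Sbsn and Dsg1a had a promoter peak in WT, Sbsn and Dsg1a in KO2 and Dsg1a in KO1, and the part of such cells in these values was not tested.

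Crnn, which encodes cornulin, an S100-fused protein of squamous epithelium counted here with the neighbours, had 15 tags in WT and 24 in KO2, at 9 and 22 bases past its start, and nothing listed in KO1. Kprp, a keratinocyte proline-rich protein, had 8 tags and 2310050C09Rik had 13 in KO2, with no promoter peak listed in the other libraries. The Kprp summit lay 1187 bases past the start, inside the gene, at a −log10 q of 2.85. It was lost when a −log10 q of 5 was asked. The summit of 2310050C09Rik lay at −19 from the start. With S100a8 these genes made up the 3 members open in KO2 alone, 3.9% of the members against 6.50% of all genes.

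Lor encodes loricrin, the bulk protein of the envelope. Its promoter was listed in WT with 6 tags, below the threshold, and not listed in either KO library. Flg, which encodes filaggrin, was listed in WT with 6 tags, below the threshold, and in no KO library. The WT summit (93292216) lay 17 bases past an annotated start site near the end of the gene, which runs from 93273523 to 93293686. It is thus not a reading at the first base of Flg. The start sites used for Flg and Flg2 all lie past the first base of the gene. Between 93164824 and 93323040 of chromosome 3, which spans both genes, no region had a peak in any library. Of the 21 Lce genes, 4 were listed below the threshold in WT (Lce1c, Lce1d, Lce1g and Lce3e, 5 to 7 tags), 2 in KO2 (Lce6a and Lce3c, 4 and 5 tags) and 0 in KO1. Of these listings, that of Lce3e lay at −68 and that of Lce6a at −208 from the start, and the others lay 391 bases or more away.

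**Figure D3:**
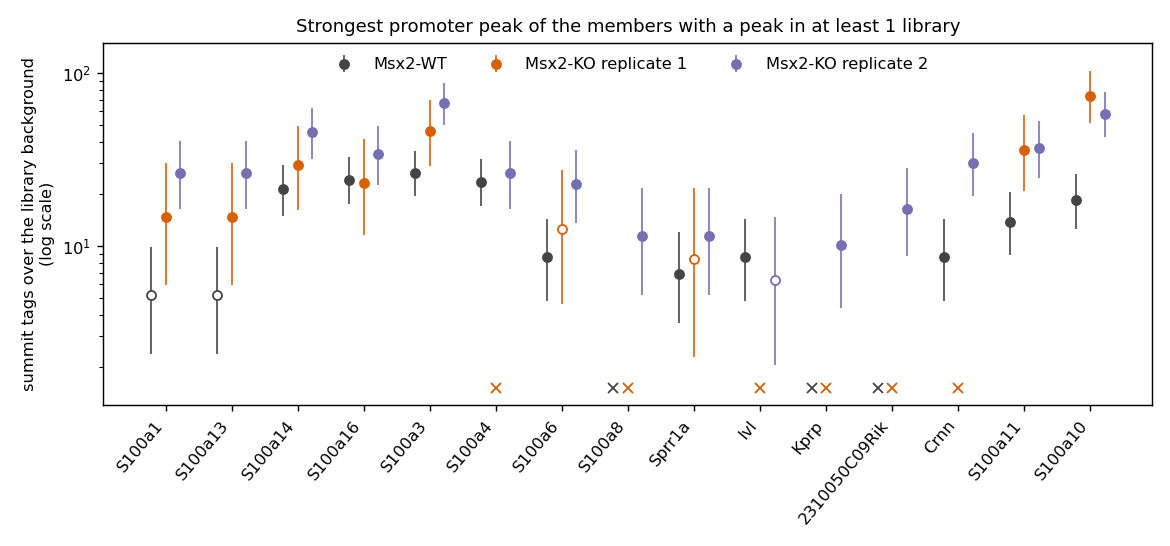
Tags at the strongest promoter summit over the library background (y axis, log scale) for the 15 members with a promoter peak in at least 1 library (x axis, in genome order); whiskers are 95% Poisson intervals of the tag number, filled points passed the threshold, open points were listed below it and crosses near the floor mark no listing. The S100 genes range from 5.18 to 73.5 times background. Sprr1a, Ivl and Kprp lie between 6.33 and 11.4, and in KO2 2310050C09Rik reaches 16.5 and Crnn 30.4.

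Outside promoters the complex was not closed. Merging overlapping peaks of the 3 libraries gave 68 regions that touch the stretch. Of these, 17 held a promoter peak (25%, against 24.8% of the regions of the genome). A further 10 lay in gene bodies (14.7%, against 35.1%) and 41 were intergenic (60.3%, against 40.1%). The higher intergenic share thus went with a lower gene-body share, while the promoter share was near that of the genome. Counted as summits, 35 of 64 (54.7%) were intergenic in WT, 14 of 32 (43.8%) in KO1 and 34 of 69 (49.3%) in KO2, against 35.0%, 32.9% and 37.0% genome-wide. Their Wilson intervals were 42.6 to 66.3, 28.2 to 60.7 and 37.8 to 60.8. These lay above the share of the genome in WT and, narrowly, in KO2 but not in KO1. On chromosome 3 alone the shares were 38.0%, 37.5% and 43.4%, and there the interval lay above in WT only. The intervals treat summits as independent, but the 64, 32 and 69 summits came from 52, 26 and 55 peaks.

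Of the 51 regions outside promoters, 15 had a peak in all 3 libraries (29.4%, against 17.4% in the genome). A further 11 were found in WT and KO2 alone (21.6%, against 13.4%), 9 in WT alone (17.6%, against 23.1%), 13 in KO2 alone (25.5%, against 32.9%) and 1 in both KO libraries alone (1.96%, against 8.71%). Of the 15 shared regions, 10 were intergenic and 5 lay in gene bodies.

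The strongest of the shared regions by their weakest library lay 20.3 kb from the nearest annotated start of S100a10 (chr3:93580687-93581953) and held 28, 23 and 24 tags in WT, KO1 and KO2. A second one, 8.1 kb from the same start (chr3:93568409-93569249), held 32, 15 and 42. In the gap between Lelp1 and Sprr2a1 a region 27.4 kb from the start of Lelp1 (chr3:92169428-92170572) held 35, 12 and 24 tags. A region inside S100a3 (chr3:90597263-90598426) held 27, 19 and 36.

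Between 2310050C09Rik and Lce3a, at the edge of the longer Lce gap, a region (chr3:92893594-92895306) held 22 tags in WT, 12 in KO1 and 38 in KO2. Another at the far edge of that gap, 16.6 kb from the start of Crnn (chr3:93127984-93129716), held 25, 12 and 18. Between Tchhl1 and S100a11 a region (chr3:93506156-93507438) held 30, 11 and 38. The 2 edges of the gap without Lce promoter peaks were thus open in each of the 3 libraries, but not always at one site. Near Crnn the strongest summits of KO1 and KO2 lay outside the WT peak, and near Lce3a that of KO1 did.

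Upstream of the 3 Sprr2a genes lay 3 further shared regions, at 4.11 kb from Sprr2a1, 4.33 kb from a start of Sprr2a2 and 4.34 kb from Sprr2a3. They held 22, 9 and 42 tags, 18, 13 and 36 tags, and 23, 12 and 24 tags in WT, KO1 and KO2. They are copies of one sequence: the region before Sprr2a1 is identical over 1273 of 1273 aligned bases to that before Sprr2a2, and over 1271 of 1272 to that before Sprr2a3, with 1 gap base. Reads from the copies cannot be assigned to one of them, so the 3 regions are not separate measurements, and with the copies counted once there were 13 shared regions and not 15. Of all 51 regions, 6 consisted mostly of 50-base words that recur in the stretch. Lor itself, without a promoter peak, had a shared region inside its gene body, chosen for mention after its values were seen, with 9, 5 and 10 tags.

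The sequences of the regions between Lelp1 and Sprr2a1, before Sprr2a1, and the stronger one near S100a10 are shown: the first and the last were the shared regions with the 2 largest −log10 q values in their weakest library, and the other stands for the repeated copies. Each is 121 bases on the plus strand of GRCm38, centred on the strongest summit, at chr3:92170057-92170177, chr3:92211633-92211753 and chr3:93581005-93581125, with the same motifs in capitals.
Lelp1 to Sprr2a1 region: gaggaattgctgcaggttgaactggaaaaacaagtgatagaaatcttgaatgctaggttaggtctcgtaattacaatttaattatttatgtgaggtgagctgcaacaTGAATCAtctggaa
Sprr2a1 upstream region: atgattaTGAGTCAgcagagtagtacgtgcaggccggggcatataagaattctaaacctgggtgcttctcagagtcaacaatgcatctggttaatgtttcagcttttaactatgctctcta
S100a10 downstream region: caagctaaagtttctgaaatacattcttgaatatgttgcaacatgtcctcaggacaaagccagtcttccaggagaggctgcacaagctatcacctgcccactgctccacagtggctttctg

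The first 2 windows held an AP-1 motif each and the third none of the motifs searched. In the wider window of 301 bases around the strongest summit, AP-1 motifs were found in 6 of the 15 shared regions (40.0%) against 21.5% of the shared regions of the genome. Of all 51 regions outside promoters of the complex 11 held one (21.6%), against 19.2% in the genome. Of the 6, 3 are the Sprr2a copies. The Msx-type homeobox core CAATTA was found in 10 of 51 (19.6%), against 12.4%.

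**Figure D4:**
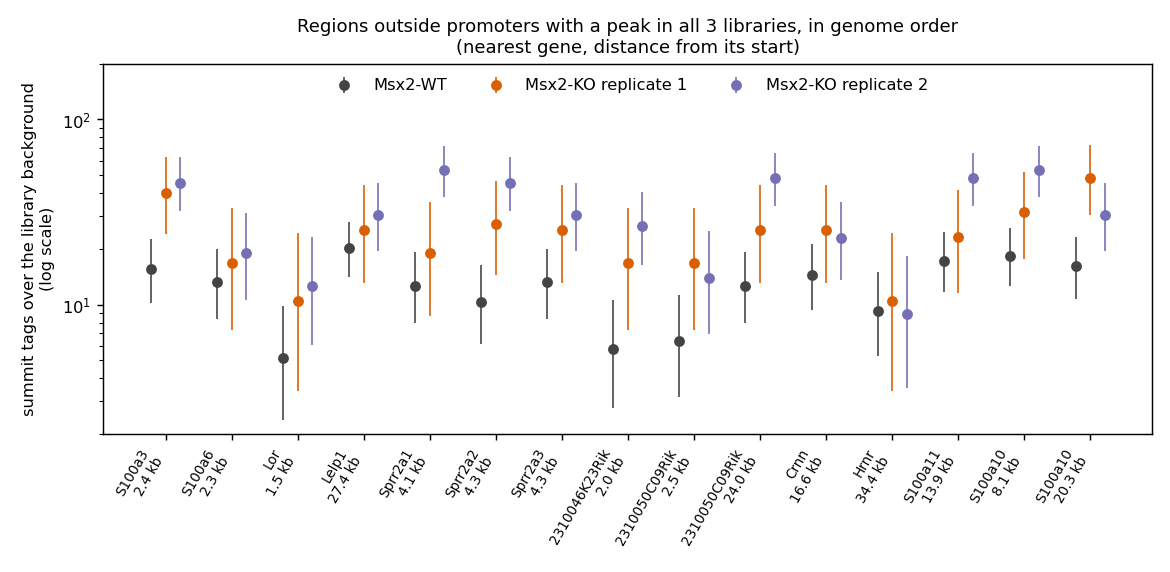
Tags at the summit over the library background (y axis, log scale) for the 15 regions outside promoters with a peak in all 3 libraries, in genome order with nearest gene and distance from its start in kb; whiskers are 95% Poisson intervals. The WT points lie below those of both KO libraries in every region but the one near Hrnr, and the 3 Sprr2a regions are copies of one sequence. The summits of a region can lie at different sites in different libraries.

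At these 15 regions the median level was 13.2 times background in WT, 25.2 in KO1 and 30.4 in KO2, and at the shared regions outside promoters of the whole genome it was 10.4, 21.0 and 25.3. The WT median was 0.476 times the mean of the KO medians. By the deposited fold, which adds 1 tag to the signal and to the background, that ratio was 0.949. The order of the libraries was the same in the complex as in the genome, and the difference between WT and KO rests on the scale chosen.

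A single region was found in both KO libraries alone, inside Tchh (chr3:93445969-93447938), which encodes trichohyalin of the inner root sheath and medulla. It held 14 tags in each, and 12 tags in WT, where its −log10 q of 1.74 was below the threshold. The KO1 summit (93447407) lay outside the KO2 peak, whose summit was at 93446921, so the KO tags are not of one site. The WT summit was at 93447320. Of the region, 15.7% consists of repeated words. Of the regions in WT alone, the strongest lay between Hrnr and Rptn (chr3:93367050-93367552) with 16 tags and nothing listed in the KO libraries, followed by one between Crnn and Flg2 (chr3:93163122-93163558) with 14 tags in WT, 3 tags below the threshold in KO2 and none listed in KO1. The other 7 held 9 to 13 tags, of them 1 near Ivl (chr3:92578610-92579799), 5.23 kb from its start, with 10.

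The families also differed in promoter sequence, read over 250 bases before and 50 after each start. The median observed-over-expected CpG ratio was 0.0871 over the members, against 0.552 over all protein-coding genes, and it was 0.167 in the S100 genes, 0.0774 in the Sprr genes and 0.0612 in the Lce genes. AP-1 motifs stood in 10 of 15 Sprr promoters (66.7%), 0 of 21 Lce promoters and 6.70% of all promoters. The exact letters TATAAA, on either strand, stood in 12 of 15 Sprr (80.0%), 4 of 21 Lce (19%) and 12.5% of all promoters. Klf-type boxes stood in 8 of 14 S100 promoters (57.1%) and 32.4% of all. The CAATTA core stood in 4 of 21 Lce promoters and 7.67% of all. Members with a promoter peak in at least 1 library carried an AP-1 motif in 4 of 15 cases (26.7%) and members with none in 14 of 62 (22.6%). For the Klf-type box the counts were 9 of 15 (60%) and 10 of 62 (16.1%), and S100 genes make up most of the members with a peak. A match says only that the letters are present. The lack of a match does not exclude a related box with other letters, such as the gataaaag before Lce3d printed above.

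**Figure D5:**
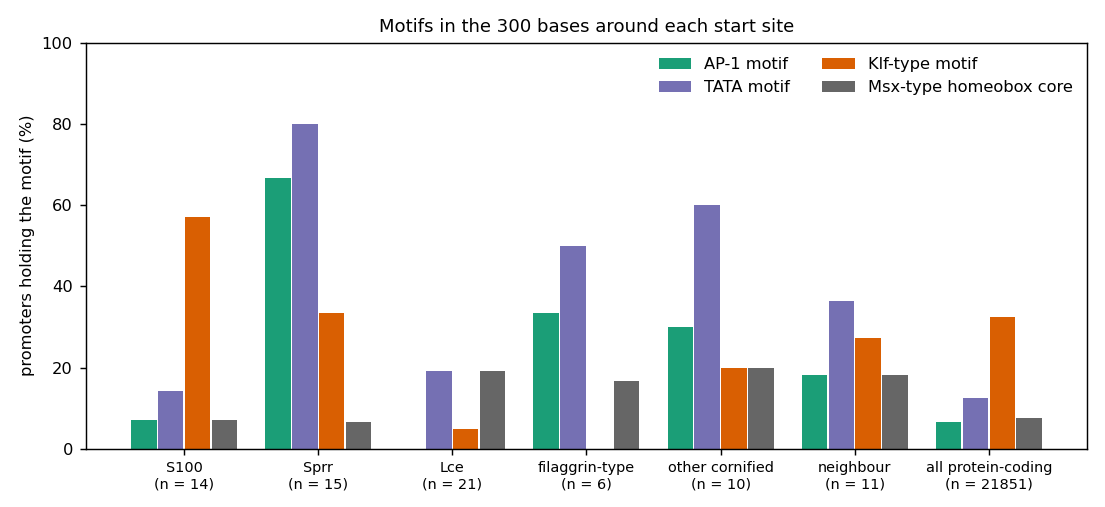
Share of promoters (y axis, percent) that hold each of 4 motifs in the 300 bases around the most upstream start, by gene family and for all protein-coding genes (x axis, with the number of genes). The Sprr genes stand out with 66.7% for AP-1 and 80.0% for TATA, and the Lce genes show none for AP-1.

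Genes outside the stretch that act with these proteins were read in the same way. Of 20 regulators of epidermal differentiation, 18, 13 and 17 had a promoter peak in WT, KO1 and KO2 (90%, 65% and 85%), against 47.1%, 37.9% and 53.7% of all protein-coding genes. Of 21 partners of the barrier, such as cross-linking enzymes, desmosomal and lipid-processing proteins, 13, 9 and 8 had one (61.9%, 42.9% and 38.1%), which is near the share of all genes in KO1 and below it in KO2. Klf4, which drives the terminal programme, had 39, 24 and 51 tags, and Grhl1, a grainyhead factor of the epidermis, had 48, 28 and 51. Evpl, which encodes envoplakin, had 62, 16 and 26, and Casp14, the protease of filaggrin breakdown, had 34, 5 and 23. Krt10, the suprabasal keratin, had 10 tags in WT, 5 below the threshold in KO2 and nothing listed in KO1. Krt1 and Tgm3 had nothing listed in any library.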

How the data were processed

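Reads had been trimmed (Trimmomatic), mapped to GRCm38/mm10 (BWA-MEM) and stripped of mitochondrial reads by the authors, who ran MACS2 on each library without a shifting model and with duplicates kept. The versions of BWA and MACS2 are not given in the sources used here. The deposited lists hold, per summit, a fold enrichment (ratio), −log10 p and −log10 q, and a display score, which was not used. The methods name a q-value limit of 0.01, but the lists reach down to a p of 0.01, so a −log10 q above 2 was applied.

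Tag numbers were solved from fold and −log10 p, with 99.9% of summits recovered in each library, and the steps were tested on simulated data. Total read depth is unknown, and the background stands in for it. Genes and start sites came from GENCODE on GRCm38, sequences from the RefSeq copy of GRCm38. Promoter windows replaced summit windows in print, since windows around some summits would hold transcribed bases. Overlapping peaks (1 base) were merged into regions. Shares carry 95% Wilson intervals and tags 95% exact Poisson intervals. With 1 Msx2-WT library no test was made.

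Members, lists and motifs were chosen with earlier results of these data known. Named were the S100, Sprr, Lce, filaggrin-type and cornified members and the neighbours with a promoter peak in at least 1 library, Lor, Ivl, Flg, S100a8 and S100a9 in any state, the 8 regions outside promoters that all 3 libraries share with the largest −log10 q in their weakest library, and those of Msx2-KO or Msx2-WT alone. Calculations ran under Python 3.11.15 with scipy 1.17.1, pandas 2.3.3, Biopython 1.88, numpy 2.4.6 and matplotlib 3.10.9.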

Additional observations from a re-analysis of the deposited data

How the results depend on the processing

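Values are given for WT, KO1 and KO2 in that order where 3 stand together. Of 122 alternative values of the main counts, 70 stayed within 1.5 times the value reported or, for the level, within 1 SD of it, and of 105 values of single families 69 did. In each alternative run the S100 genes had at least as many promoter peaks as the Sprr, Lce and filaggrin-type genes together, and the cause of the moves was not tested unless the setting itself gives it.

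When peaks had to reach a −log10 q of 5, the intergenic summits were 20, 7 and 15, KO1 had 4 members with a promoter peak, all 4 of them S100 genes, the Sprr, Lce and filaggrin-type genes had 0 in WT and 0 in KO2, 0 promoters were in both KO libraries alone and 7 regions outside promoters were shared by all libraries. With every deposited peak kept, 24, 11 and 24 members had a promoter peak, of them 7, 1 and 8 Sprr, Lce or filaggrin-type genes, with 102, 46 and 75 intergenic summits. The splits were then 0 promoters in KO alone, 9 promoters in WT alone, 23 shared regions, 2 regions in KO alone and 73 regions in WT alone.

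With the lists cut to the 19450 summits of the shortest, the Sprr, Lce and filaggrin-type genes had 0 in WT and 0 in KO2, intergenic summits were 21 in WT and 14 in KO2, and 2 regions were in KO alone. With tags thinned in 1 random draw to the background of KO1, WT had 5 members with a promoter peak, 4 of them S100 and 0 Sprr, Lce or filaggrin-type, intergenic summits were 13 in WT and 19 in KO2, and there were 4 promoters and 7 regions in KO alone, 7 shared regions and 4 regions in WT alone.

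A window of 3000 bases gave KO1 11 members, the Sprr, Lce and filaggrin-type genes 2 in WT and 2 in KO2, and 0 promoters in WT alone. Any overlap of the peak with the window gave 2, 2 and 0 for the last 3 values. A reciprocal overlap of 50% gave 18 regions in WT alone. By the authors' fold the ratio of WT to KO medians was 0.949 in place of 0.476.

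Without KO1 or without KO2, promoters in KO and not WT ranged from 2 to 5, promoters in WT alone from 1 to 5, regions in every library from 16 to 26, regions in KO and not WT from 2 to 14 and regions in WT alone from 10 to 20; 5 promoters and 14 regions in KO and not WT, and 26 regions in every library, were the values without KO1. No paired analysis was possible because WT has 1 library and no test was made. The weakest peaks stood highest over background in KO1, at 10.5 times, and whether depth lowered its counts was not tested. Counting genes by their start site, and leaving out all annotated genes from intergenic, moved no count by over 1.5 times.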
